A study of Homo sapiens with 4 samples.

Results

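The genes of the cytosolic ribosome were examined in a study of H3K27ac, an acetylated form of histone H3 that marks active promoters and enhancers, in the established melanoma line A375, of human origin. Members were the genes whose symbol is RPL or RPS with a number and at most a short suffix, together with RPSA and the stalk genes RPLP0, RPLP1 and RPLP2, leaving out the kinases whose symbols start with RPS6K. The rule found 83 of the 17301 genes in the authors' deposited table, 51 of the large and 32 of the small subunit, named beside 261 of its 91107 distinct regions. RPL3L, RPS4Y1 and RPS4Y2 fit the naming rule and were not analysed here.

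By the labels, 2 libraries are of vehicle-treated cells, which received isopropanol, and 2 are of cells treated with the medium-chain fatty acid octanoate at 1 mM. Both treatments lasted 48 hours. All 4 libraries come from 1 cell line, and the labels do not say that the 2 of a group came from separate cultures. The authors' deposited table compares the groups and gives for each region a mean level in normalized units, a log2 fold change with its standard error, and p-values. It holds no value per library, so depth is unknown, no value by sample can be shown, and no test of one gene set against another across libraries was possible. Its header does not name the numerator of the fold change, so changes are called positive or negative and not gains or losses under octanoate. Of the markers used to check the cell label, MITF, PMEL and SOX10 among 7 melanocyte genes had a region at their start in the authors' deposited table, while DCT, MLANA, TYR and TYRP1 had none, and 5 of 5 genes of the dedifferentiated melanoma state had one.

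The cytosolic ribosome is built from a small subunit, which reads the mRNA, and a large subunit, which joins amino acids. Its proteins are needed in nearly equal amounts, their genes are among the most active in growing cells, and many of their mRNAs begin with a C followed by a run of pyrimidines. That run, the terminal oligopyrimidine tract, places their translation under control of the kinase mTORC1 and the RNA-binding protein LARP1. Some ribosomal proteins act outside the ribosome as well: RPL5 and RPL11, bound to 5S ribosomal RNA, hold back the p53 inhibitor MDM2.

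Start sequences are shown for 12 members, chosen to accompany the values below: RPS15, RPL3 and RPLP1 from the low end of the fold changes, RPS16 and RPS4X from the high end, RPLP0 and RPS6 among the highest levels, RPSA as a member of known role, and the 4 paralogs with a region at their start. Each covers 60 bases before the start and 20 from it, 5′ to 3′ on the gene's strand, from the RefSeq promoter table (GRCh38.p14). Capitals mark the pyrimidine run where it begins with C at the start base and has at least 5 bases, and otherwise the annotated start base alone.
RPS15 (chr19:1438336-1438415, + strand): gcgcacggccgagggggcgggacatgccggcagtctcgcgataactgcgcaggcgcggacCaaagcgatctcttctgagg
RPL3 (chr22:39319604-39319683, - strand): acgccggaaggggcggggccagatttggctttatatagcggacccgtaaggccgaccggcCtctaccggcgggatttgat
RPLP1 (chr15:69452758-69452837, + strand): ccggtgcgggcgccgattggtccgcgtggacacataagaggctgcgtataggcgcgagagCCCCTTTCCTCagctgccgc
RPS16 (chr19:39435930-39436009, - strand): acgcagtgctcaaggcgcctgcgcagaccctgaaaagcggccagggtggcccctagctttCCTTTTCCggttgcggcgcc
RPS4X (chrX:72277229-72277308, - strand): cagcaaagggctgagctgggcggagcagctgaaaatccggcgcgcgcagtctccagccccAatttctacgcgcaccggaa
RPLP0 (chr12:120201092-120201171, - strand): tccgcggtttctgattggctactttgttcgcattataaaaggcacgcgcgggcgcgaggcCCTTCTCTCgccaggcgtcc
RPS6 (chr9:19380217-19380296, - strand): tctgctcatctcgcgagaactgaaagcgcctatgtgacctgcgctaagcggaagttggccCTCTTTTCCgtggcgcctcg
RPSA (chr3:39406660-39406739, + strand): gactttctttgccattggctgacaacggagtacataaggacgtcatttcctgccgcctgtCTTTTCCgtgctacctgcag
RPL22L1 (chr3:170870176-170870255, - strand): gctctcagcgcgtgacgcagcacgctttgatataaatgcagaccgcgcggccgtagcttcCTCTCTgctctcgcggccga
RPL26L1 (chr5:172958669-172958748, + strand): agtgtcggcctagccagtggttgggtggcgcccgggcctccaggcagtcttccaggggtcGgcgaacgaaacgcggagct
RPL7L1 (chr6:42879556-42879635, + strand): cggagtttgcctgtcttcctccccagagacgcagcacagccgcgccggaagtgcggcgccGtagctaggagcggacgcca
RPS27L (chr15:63157458-63157537, - strand): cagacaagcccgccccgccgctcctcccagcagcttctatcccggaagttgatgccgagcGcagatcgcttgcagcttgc

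Pyrimidine starts set the ribosomal protein promoters apart by sequence. RefSeq promoter entries were found for 67 of the 83 members, and 47 of these genes (70.1%) had an entry that began with C and at least 4 further pyrimidines. The share was 5.14% of all 27305 genes in the promoter table and 6.82% of the 8691 other genes with a tested region at their start in the authors' deposited table. Among the members shown, RPLP1, RPS16, RPLP0, RPS6, RPSA and RPL22L1 carry such a run, whereas RPL26L1, RPL7L1 and RPS27L start with G. RPL22L1, RPL26L1, RPL7L1 and RPS27L are paralogs, second copies of RPL22, RPL26, RPL7 and RPS27.

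Other letters were searched on both strands in the window from 250 bases before to 50 after the start, each motif counted on its own whether or not it overlapped another. The ETS core CCGGAAG, bound by factors such as GABP, was present in 24 of the 67 genes (35.8%), against 12.2% of all genes in the promoter table and 23.3% of the other genes with a tested start region. The SP1 letters GGGCGG were in 58.2% of members, against 48.3% and 78.4%. The YY1 core AAGATGG was in 13.4%, against 7.11% and 9.64%. TATAAA was in 10.4% of members (3819 of all 27305 genes, and 7.44% of those with a tested start region), the NRF1 letters GCGCATGC in 4.48% (3.68% of all genes and 6.80% of those with a tested start region), CACGTG in 7.46% (8.77% and 12.6%) and CCAAT in 34.3% (39.7% and 43.4%). A gene counted if any of its promoter entries held the letters. The 67 members had 83 entries, and the 8691 other genes with a tested start region had 12384. Per entry, CCAAT was in 32.5% for members, 34.6% for all genes and 35.4% for those other genes. The ETS core was in 33.7%, 10.3% and 17.8% of entries.

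Nearly every member carried an H3K27ac region at its start. Such regions were common, and 9914 other tested regions lay at gene starts. The share of all 17301 genes with a start region was not computed. The authors' deposited table gave 79 of the 83 genes exactly 1 region with a distance of 0, read as overlap with the transcription start, and all 79 had a level high enough for an adjusted p-value. The remaining 4 were RPL4, RPL36, RPL10L and RPL39L. For RPL4, a large subunit protein, and RPL36 the RefSeq start nevertheless lay inside a listed region, which the table named at a distance of 15800 and -11727 bases and shared with SNAPC5 and ZWILCH, and with HSD11B1L and LONP1. RPL10L and RPL39L, paralogs of RPL10 and RPL39, had only distant regions, the nearest at 59.6 and 40.9 kb. For all 64 start regions whose gene had a promoter entry, the RefSeq start lay inside the region.

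These regions were large. The median of their mean level was 229 normalized units in the authors' deposited table, with quartiles of 173 and 270, whereas the 9914 other regions at starts had a median of 87.2. Of those other regions 92.6% had a lower level than the median member. The median width was 6.17 kb, against 3.30 kb at other starts. Per kb of region the median level was 34.1 for members and 25.8 for other starts, so the members exceeded the typical start in width and in density.

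**Figure D1:**
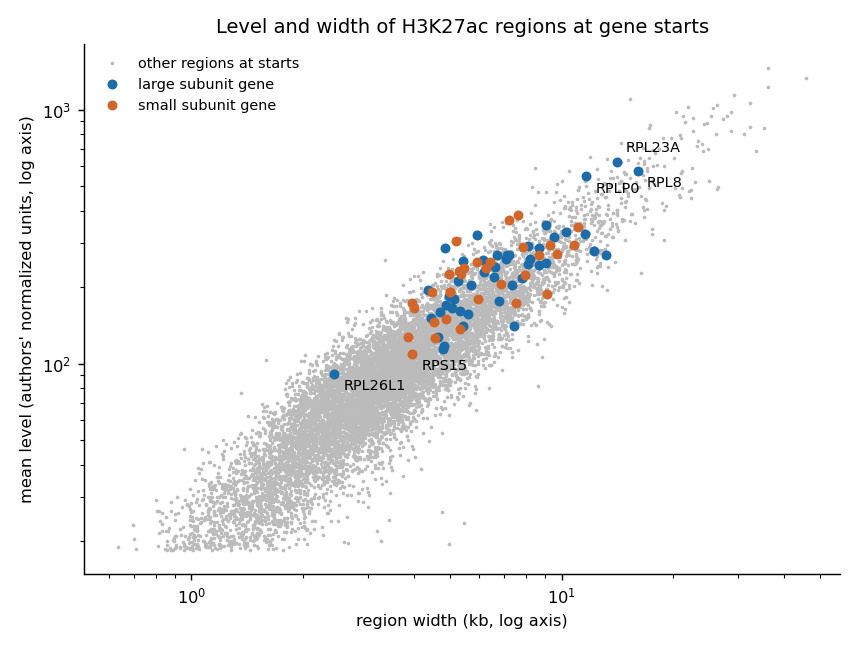
Mean level in the authors' normalized units against region width in kb, both on log axes, for regions at gene starts; grey points are the 9914 other regions and coloured points the 79 regions of large and small subunit genes. The members lie in the upper part of the cloud, from RPL26L1 at 2.43 kb and 91.5 units to RPL23A at 14.1 kb and 626 units.

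The widest region, over RPL8 (chromosome 8, 144785329 to 144801377, hg38 as in the submitters' notes), spanned 16.0 kb with a level of 574 in the authors' deposited table and was shared with ZNF34. RPL23A (chromosome 17, 28715671 to 28729745) had the highest level, 626 over 14.1 kb, in a region also listed with NEK8, RAB34 and TLCD1. RPLP0, the base of the stalk that recruits elongation factors, had 547 over 11.7 kb. Per kb the order changed: RPS21 was highest with 59.0, and high values were also found for RPL13A with 54.5, RPS6, the ribosomal substrate of S6 kinase, with 50.9 and RPS2 with 50.6. RPL5 was lowest with 18.9 per kb, followed by RPL35A with 20.4 and RPS4X with 20.6. The lowest levels in the authors' deposited table belonged to RPL26L1 (91.5), RPS15 (109), RPL7L1 (115), RPL36A (118) and RPS29 (126), and the narrowest regions to RPL26L1, RPS20 (3.85 kb) and RPS28 (3.94 kb).

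The regions were placed unevenly around the start. Among the 64 members with a RefSeq start inside the region, the median extent was 1.39 kb upstream and 4.43 kb downstream, and 60 of them (93.8%) reached farther downstream. Other start regions of like level, defined as those within the quartiles of the members' level, had medians of 2.53 and 4.02 kb, and 69.0% of the 880 with a RefSeq start inside reached farther downstream. Ribosomal protein genes are short, with a median length of 5.04 kb in RefSeq against 27.9 kb for the genes at starts of like level.

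The mark often ran over the whole gene. The start region covered the gene from end to end for 40 of 79 members (50.6%), against 5.53% of the other genes at starts of like level. Among 103 of those genes whose length also lay within the members' quartiles, 17.5% were covered whole. RPLP0 is one example, with 10.1 kb of region downstream of the start and a gene of 4.41 kb. In contrast, the RPS3 region reached 5.91 kb into a gene of 22.8 kb.

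**Figure D2:**
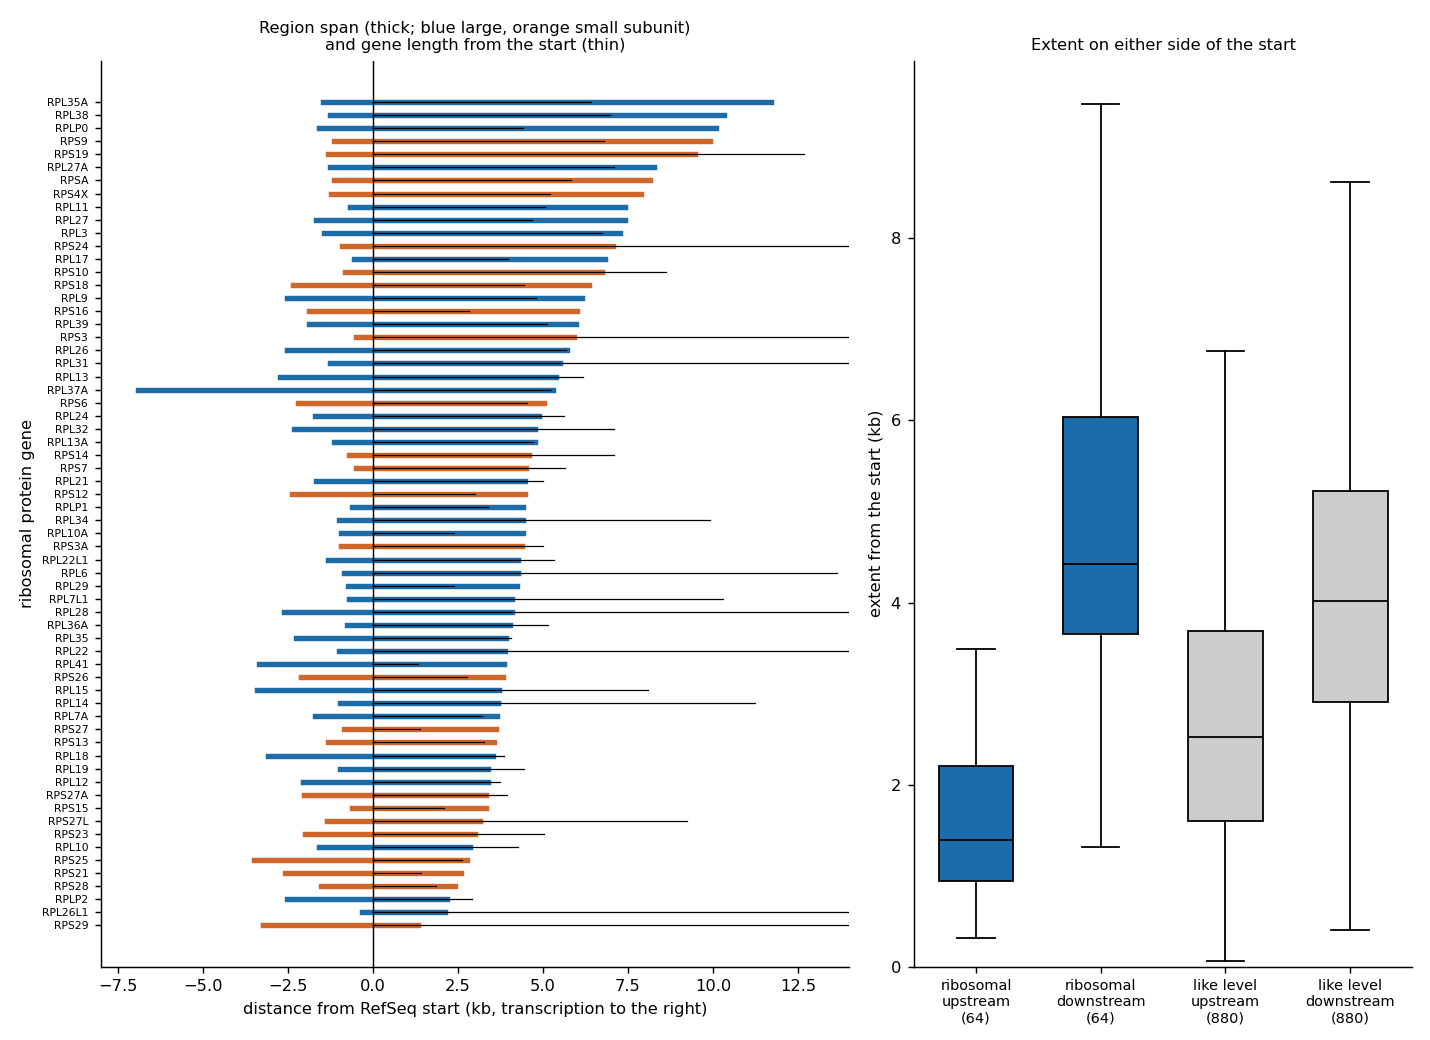
Left, the span of the start region (thick bars, kb from the RefSeq start, transcription to the right) and the gene length drawn from the start (thin lines, ending at the edge of the plot where longer) for 64 members. Right, extents on either side of the start for the 64 members and the 880 other regions of like level; boxes show median and quartiles, and whiskers the most distant values within 1.5 box lengths. The members reach a median of 1.39 kb upstream and 4.43 kb downstream.

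A region can serve more than 1 gene. Of the 79 start regions, 30 (38.0%) were also listed with another gene in the authors' deposited table, against 21.1% of other start regions. The members' regions were also wider, with medians of 6.17 and 3.30 kb, and the share at other starts of like width was not computed. RPL9 shared its region with LIAS, RPS27A, which encodes a fusion of ubiquitin and a ribosomal protein, with CLHC1, and RPL7A with MED22 and SURF1. The signal of such neighbours cannot be told apart within 1 region.

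Of the 79 start regions in the authors' deposited table, 0 had an adjusted p-value under 0.05, in either direction. The background share was 0.860% of the 9996 tested regions at starts and 1.67% of all 36436 tested regions, or 1.65% counting positive calls only, so 0 of 79 is no result about the members. The smallest adjusted p-value among the start regions of the authors' deposited table was 0.244, and 2 of 79 (2.53%) had an unadjusted p-value under 0.05, both positive, where the background was 19.2% of regions at starts. The fold changes themselves lay in a narrow band. Their median in the authors' deposited table was 0.20 on the log2 scale, a ratio of 1.15, with quartiles of 0.15 and 0.27, and 78 of 79 were positive.

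That band lay below the rest of the promoters, almost all of which were also positive. The median log2 fold change of the 9914 other start regions in the authors' deposited table was 0.35, and 98.1% of them were positive. Of the 79 members, 72 (91.1%) lay under the median of all start regions, and 18.5% of other start regions lay under the members' median. The 95% order-statistic interval over regions was 0.18 to 0.24 for the members and 0.35 to 0.36 for the others. Such an interval takes regions as independent of each other, and the error between libraries is not in it.

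**Figure D3:**
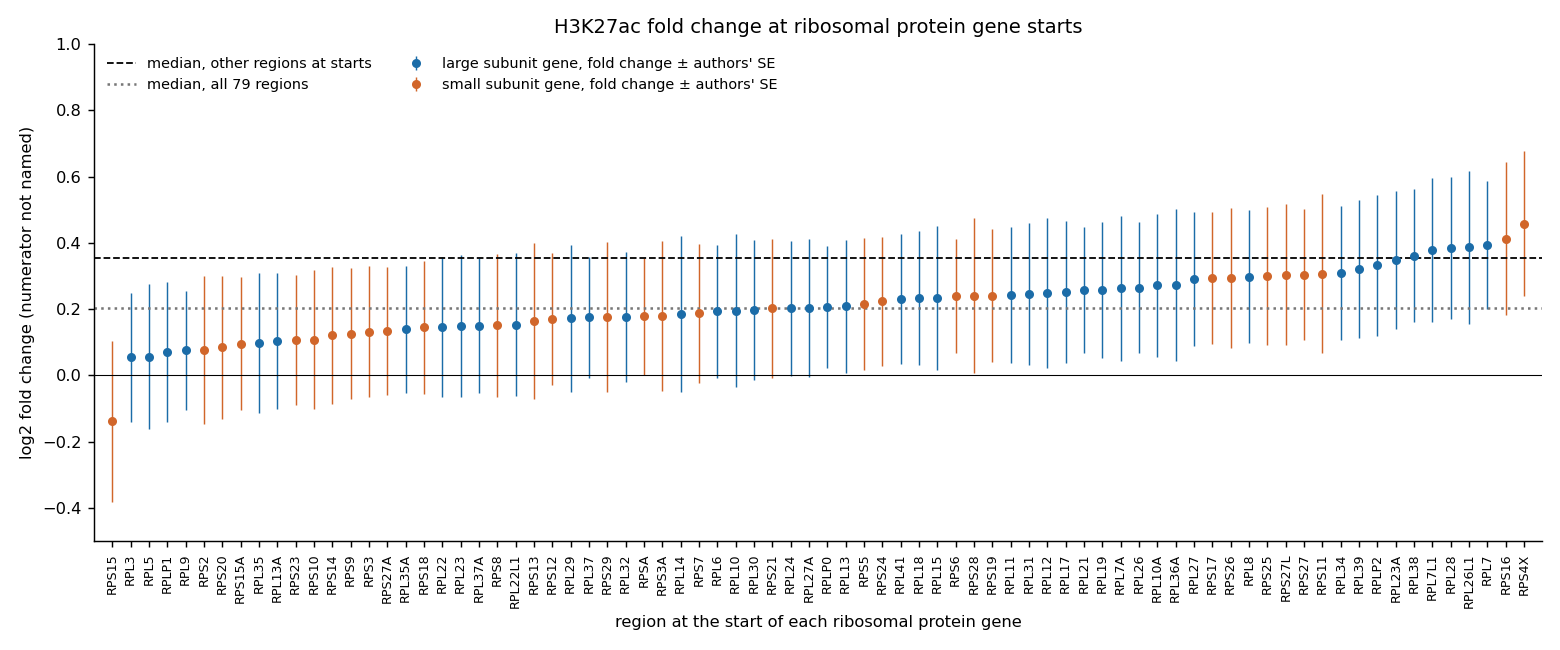
Log2 fold change of the authors' deposited table (points) with the authors' standard error (bars) for the region at the start of 78 of the 79 ribosomal protein genes, ordered by value; colours give the subunit, the dashed line the median of the 9914 other start regions (0.35) and the dotted line the median of all 79 (0.20). Values run from -0.14 at RPS15 to 0.46 at RPS4X, and most lie below the dashed line.

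Fold changes were lower where levels were higher. With the other start regions of the authors' deposited table ordered by level into 5 classes of like size, the median log2 fold change was 0.49 in the class of lowest level and 0.30 in that of highest level. The 919 other start regions of like level had a median of 0.29 (interval 0.28 to 0.30), and 61 of 79 members (77.2%) lay below it. Restricting these further to the members' quartiles of width left 603 regions with a median of 0.30. The 100 regions at starts of like level beside genes of like length had a median of 0.31. The members' median of 0.20 was lower than each of these, and whether the gap exceeds the spread between libraries was not tested.

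Related gene sets did not all share the low band. Regions at the starts of 15 of 17 genes on the translation factor list had a median of 0.18 on the log2 scale in the authors' deposited table, with an interval of 0.12 to 0.24. The list was drawn up as genes whose mRNAs also begin with a pyrimidine tract, which was not checked here. It also holds genes of other roles, such as NPM1 and HNRNPA1. Elongation factor genes EEF2 and EEF1A1 had 0.20 and 0.27, the growth-associated gene TPT1 0.24, the nucleolar chaperone gene NPM1 0.16 and the splicing factor gene HNRNPA1 0.02, the lowest of the list. EEF1B2 had the highest value, 0.36. FAU, RPL36AL and RACK1, which encode ribosomal proteins under other names, had 0.26, -0.03 and 0.29 in the authors' deposited table. The values of FAU, RPL36AL and RACK1 lie below the median of start regions.

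Genes that build the ribosome gave higher values. The 30 start regions beside genes of ribosomal RNA synthesis, assembly and export had in the authors' deposited table a median of 0.34 (interval 0.31 to 0.37), and 10 start regions beside mTORC1 pathway genes 0.33 (interval 0.23 to 0.48). Mitochondrial ribosomal protein genes, which serve a separate ribosome, lay between, with 0.26 over 75 start regions (interval 0.23 to 0.31) and a median level of 101. The median level was 121 at the assembly starts and 99.4 at the mTORC1 starts, against 229 for members and 208 for the translation factor list. Other starts in class 4 of the 5 classes of level had a median level of 122 and a median fold change of 0.31. Those in class 3 had 87.2 and 0.34. Whether level accounts for the higher values was not tested. The counts of calls were 0 in either direction for the translation factor list (44 tested regions), the assembly list (50), the mTORC1 and LARP1 list (35) and the other ribosomal protein genes (4). At an unadjusted p-value under 0.05 these lists had 3, 3, 6 and 0 regions in the authors' deposited table. Over all tested regions 1.67% were called and 18.4% had an unadjusted p-value under 0.05, so counts of 0 calls in lists of this size say little about the lists.

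**Figure D4:**
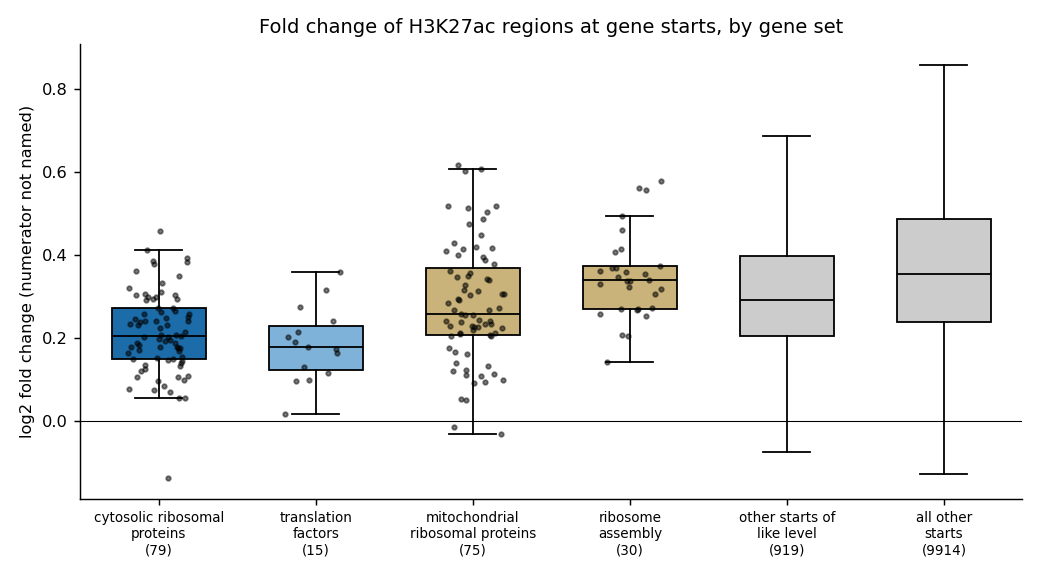
Log2 fold change of the authors' deposited table for regions at gene starts in 6 sets, with the number of regions in brackets; boxes show median and quartiles, whiskers the most distant values within 1.5 box lengths, and points the single regions of the 4 gene lists. The cytosolic ribosomal protein set (median 0.20) and the translation factor set (0.18) sit below the assembly set (0.34) and the other starts (0.35).

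The members varied little among themselves. The SD of the log2 fold change over the 79 start regions was 0.099, and the median standard error of a single region in the authors' deposited table was 0.208. At 77 of 79 regions the value lay within 1 standard error of the members' median, and at 61 within 1 standard error of the median of all start regions. The other 18 lay more than 1 standard error below that median and 0 above it, while 7.17% of other start regions lay below and 9.66% above by that measure. Other starts of like level had an SD of 0.149 and a median standard error of 0.216. The spread of the members is thus smaller than the error of a single region. A small spread was not particular to them. The SD was 0.089 at the translation factor starts and 0.104 at the assembly starts. It was 0.140 at the mTORC1 starts and 0.142 at the mitochondrial ribosomal starts.

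Neither level nor width ordered the members. Spearman's rho of the fold change with level across the 79 member regions was -0.0032, and with width 0.0053, whereas over the 9914 other starts both were -0.30. The regions share the same libraries, so these are descriptions. Level and width themselves went together, with rho of 0.75 in members and 0.90 in other starts.

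Large subunit genes had in the authors' deposited table a median of 0.23 over 47 regions (log2 scale, interval 0.19 to 0.26), and small subunit genes 0.18 over 32 regions (interval 0.13 to 0.24). The intervals overlapped. Within the large subunit the stalk proteins spread from 0.07 ± 0.21 (standard error) at RPLP1 through 0.21 ± 0.18 at RPLP0 to 0.33 ± 0.21 at RPLP2 in the authors' deposited table. RPL5 and RPL11, the pair of the 5S particle, had 0.06 ± 0.22 and 0.24 ± 0.21. The gaps within each of these groups are of the size of the standard errors.

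Among members of known role, RPL3, which lies near the peptidyl transferase centre, had 0.05 ± 0.20 (standard error) in the authors' deposited table. RPL10A had 0.27 ± 0.22. On the small subunit RPS6 had 0.24 ± 0.17, RPS19, which is mutated in Diamond-Blackfan anaemia, 0.24 ± 0.20, RPS3, a protein of the mRNA entry channel, 0.13 ± 0.20, and RPSA, also known as a laminin receptor, 0.18 ± 0.18. All of these values are below the median of start regions.

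At the low end, RPS15 (chromosome 19, 1437774 to 1441721), a protein of the small subunit's head, was the only negative value, -0.14 ± 0.24 (standard error, unadjusted p-value 0.570) in the authors' deposited table. Its error spans 0, and its adjusted p-value was 0.728. After RPL3, RPL5 and RPLP1 the next was RPL9 with 0.08 ± 0.18.

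At the high end, RPS4X (chromosome X, 72269374 to 72278488) had 0.46 ± 0.22 (standard error, unadjusted p-value 0.0368, adjusted 0.244) in the authors' deposited table. RPL7 had 0.39 ± 0.19 (unadjusted p-value 0.0421, adjusted 0.256). These were the only start regions with an unadjusted p-value under 0.05. By fold change RPS16 (0.41 ± 0.23) lay between RPS4X and RPL7, while RPL26L1 (0.39 ± 0.23) and RPL28 (0.38 ± 0.21) followed RPL7. RPS16, RPL26L1 and RPL28 each had an adjusted p-value above 0.3 in the authors' deposited table.

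The paralogs with a start region numbered 4, and their values in the authors' deposited table were 0.15 at RPL22L1, 0.30 at RPS27L, 0.38 at RPL7L1 and 0.39 at RPL26L1, a median of 0.34. Of these, RPL22L1 is the one whose printed start carries the pyrimidine run, and it has the lowest value. Over the 66 members with a RefSeq start inside a region, the 47 with such a run had a median of 0.20 and the 19 without it 0.24. The difference between these medians was not tested.

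Away from their own starts by the authors' distance, the members were named beside 182 regions, 55 of them with an adjusted p-value. The 55 include the RPL4 and RPL36 regions described above, which hold the RefSeq start. Members were split by the distance to the member, whereas other regions at a distance of 0 from any gene were counted as starts. The 2 sets compared below were therefore not split alike. The median level of those 55 was 32.4 normalized units, and the fold changes spread more widely, with a median of 0.27 and an SD of 0.325 in the authors' deposited table. The 26388 other tested regions away from starts had a median of 0.31. Among the 55 regions 46 were positive (83.6%, against 83.2% of the others), and 8 had an unadjusted p-value under 0.05 (14.5%, background 18.1%). The number of away regions was uneven: 34 genes had none, while RPLP1 had 21 and RPL34 19.

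A single region beside a member passed the threshold in the authors' deposited table. It was 1 of 55 tested away from the member's own start, where the background was 1.97% of tested regions away from any gene's start. It was named for RPL26L1 (chromosome 5, 172930503 to 172932374), at a distance of 26355 bases from the start. Its log2 fold change was 1.32 ± 0.38 (standard error), at a level of 24.8, and its p-value was 0.000564 before adjustment and 0.0413 after it. The adjusted p-value was 0.101 when the authors' deposited p-values were adjusted over all distinct regions, and 0.511 after subtracting the median of all tested regions.

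Of the other 5 regions away from the RPL26L1 start, 1 had an adjusted p-value, 0.829, and 4 had levels too low for one. Their values were 0.14 ± 0.39 (standard error) at 9.995 kb for the tested one, and 1.01 ± 0.56 at 13.4 kb, 0.75 ± 0.77 at 15.4 kb, 0.50 ± 0.41 at 2.54 kb and -0.06 ± 0.53 at 6.215 kb for the rest in the authors' deposited table. Each of these lies within 2 standard errors of 0. The start region had 0.39 ± 0.23. The name of the region gives the gene the authors assigned and does not show that the region acts on RPL26L1.

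After RPL26L1, the 3 smallest unadjusted p-values away from starts in the authors' deposited table were 0.00626 beside RPS21 (0.76 ± 0.28 at 5.21 kb), 0.00657 beside RPS3 (0.66 ± 0.24 at 9.74 kb) and 0.0126 beside RPLP1 (0.71 ± 0.28 at -259.8 kb). Their adjusted p-values ran from 0.127 to 0.168. The RPLP1 region lies downstream of that gene's start, since the sign of the distance follows coordinates and not strand. At the starts of the same genes the values were 0.20, 0.13 and 0.07, each lower than at its away region. The away regions were picked for a small p-value, so the gap is a description.

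**Figure D5:**
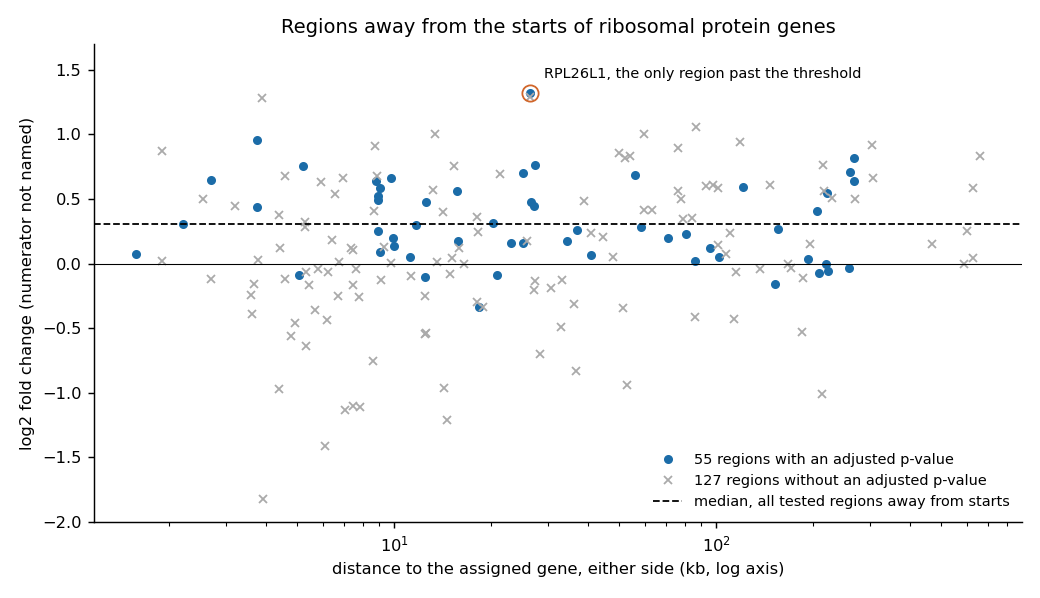
Log2 fold change of the authors' deposited table against distance to the assigned gene (either side, kb, log axis) for 182 regions away from starts; filled points have an adjusted p-value, crosses do not, and the dashed line is the median of all tested regions away from starts (0.31). The circled RPL26L1 region at 26.4 kb is the one past the threshold.

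By distance, the 16 tested regions within 10 kb had a median log2 fold change of 0.47 in the authors' deposited table, the 25 from 10 to 100 kb 0.23 and the 14 beyond 100 kb 0.16. Other tested regions at those distances had 0.35, 0.32 and 0.27, so the medians of both tested sets were lower at larger distances. Over all member regions, tested or not, the order differed. Their medians were 0.09 (65 regions), 0.20 (76 regions) and 0.16 (41 regions) in the same classes. The class from 10 to 100 kb also holds the RPL4 and RPL36 regions, which contain the RefSeq start. The 14 tested member regions beyond 100 kb belonged to RPLP1, RPL34 and RPS24. All 9 tested away regions of RPLP1 were positive, with a median of 0.41, and 4 of 8 of RPL34 were, with a median of 0.01. The positive share over other tested regions away from starts was 83.2%. With untested regions included, 18 of 21 were positive beside RPLP1 (median 0.27) and 10 of 19 beside RPL34 (median 0.02). Regions of 1 locus share the same libraries, and the difference between the loci was not tested. RPL3 had 5 tested away regions with a median of 0.16.

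Centring ends the positive direction of the start regions. Of all tested regions 87.3% were positive, with a median of 0.32, and when this median was subtracted from each deposited value of the authors' table the members' median became -0.12, with 70 of 79 start regions negative. After this step 45 regions of the table passed, and 0 beside members, with a smallest adjusted p-value at member starts of 0.904. The direction of the members on their own thus depends on the scaling between libraries, which the table does not hold. Their position below other starts cannot change when 1 constant is subtracted from every value, so centring does not test that position. A scaling that differs with level was not examined.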

How the data were processed

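H3K27ac chromatin immunoprecipitation sequencing was analysed from 1 table of the authors' comparison of 2 vehicle and 2 octanoate libraries. The submitters' processing notes name Trim Galore, cutadapt, FastQC, Bowtie2, Picard, MACS2, featureCounts, DESeq2, bedtools 2.29.1 and hg38, without their order or settings; how reads matching several sites were treated is not given in the sources used here. RefSeq lists 1988 pseudogenes named after 78 of the members.

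Per the file headers, the mean level is a normalized signal that the authors averaged over libraries. Per the file headers, log2 fold changes come with the authors' standard errors. The deposited score equalled their ratio to within 3.38e-14. The deposited adjusted p-value equalled a Benjamini-Hochberg adjustment over the 36436 regions with a value under 1 to within 1.58e-14, and 1 was read as not computed; such regions had levels of at most 18.44. The signed distance score, in bases, is the authors' per the file headers. Among member regions a negative distance marks a region at higher coordinates, whatever the strand of the gene.

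Lines repeating a region for another gene were merged for counts over all regions. Coordinates are those of the table. RefSeq starts are from GRCh38.p14; extents were measured from the start nearest the region's centre where a region held several, which can differ from the start of a printed sequence. No model was refitted, since the table holds no value per library; 0 columns of single libraries were left out. Medians carry 95% order-statistic intervals. Python 3.11.15, pandas 2.3.3 and scipy 1.17.1 were used, and adjustment, centring and intervals were tested on simulated data. Members and gene lists were chosen with earlier results of these data known. Genes named were those with a call, the 5 largest and 5 smallest fold changes, the 5 highest and 5 lowest levels and the 3 widest and 3 narrowest regions at starts, the 5 smallest p-values away from starts, paralogs, members of known role and members without a start region; items named by this rule or by a gene list that are withheld are not reported here. Per-kb levels of RPS21, RPL13A and RPL35A, and the values of RPLP2, RPL34, RPS24, RPS27A and RPL7A, were chosen after they were seen. Alternatives tried were a stricter threshold, adjustment over all distinct regions, centring, a level filter, 1 region per gene, unshared regions, leaving out paralogs or single genes, a weighted mean and RefSeq starts.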

Additional observations from a re-analysis of the deposited data

How the results depend on the processing

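The 1 call beside a member in the authors' deposited table became 0 at a threshold of 0.01, under adjustment over all distinct regions, after centring, at a level of at least 100, with 1 region per gene and without paralogs, and also 0 without RPL26L1, which was added after the data were seen. It stayed at 1 among regions listed with no other gene. The adjusted p-value of the RPL26L1 region was 0.511 after centring and 0.101 over all distinct regions.

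The median log2 fold change of member start regions was -0.12 after centring on all tested regions and -0.15 after centring on other starts, added later, both reversals by construction. The median over all tested member regions was -0.10 after centring. All other settings for these medians stayed within their intervals. Leaving out each gene in turn gave 0.203 to 0.205 at starts and 0.212 to 0.228 over all tested regions. The share of positive tested regions was 92.5% as deposited, 23.9% after centring, 97.6% at a level of at least 100, 98.8% with 1 region per gene and 74.7% with no filter on level. The cause of the last 3 was not tested.

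No paired analysis was possible because single libraries have no values in the table. The replicate block and leaving out each library were therefore not run.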
